A study of Homo sapiens with 8 samples.

Results

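The ATP-binding cassette (ABC) genes were followed in SW480, a human colorectal adenocarcinoma cell line, with and without overexpressed SPOCK1. Members were the protein-coding genes whose deposited symbol is ABC, a subfamily letter from A to G and a number, which gave 45 of 58735 genes in the table, or of 19951 protein-coding genes. They comprise 12 ABCA, 9 ABCB, 11 ABCC, 4 ABCD, 1 ABCE, 3 ABCF and 5 ABCG genes. CFTR, TAP1 and TAP2 belong to the family by sequence but carry other symbols, and are given apart. The series compared 4 libraries of cells stably expressing SPOCK1 with a FLAG tag with 4 libraries of vector control cells, and its title links SPOCK1, a secreted proteoglycan, to Wnt/β-catenin signalling and stemness. Per the labels' protocols, cells were infected with lentivirus and selected with puromycin at 4 μg/ml. No label gives the cultures or infections behind the 4 libraries of a group, so the p-values refer to library-to-library spread alone, and that spread may be technical. Should each group stem from a single infected and selected pool, SPOCK1 and any other difference between the pools cannot be told apart.

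ABC proteins bind and hydrolyse ATP at paired nucleotide-binding domains, and most use this energy to move substrates across a membrane. ABCB1, also called P-glycoprotein or MDR1, exports many unrelated compounds from the apical face of the intestinal epithelium and is the best known cause of multidrug resistance in tumour cells. Its substrates include puromycin, and ABCB1 has been described as a target gene of β-catenin and TCF factors in colorectal tumours. Members of the ABCE and ABCF subfamilies have no membrane domain and act at the ribosome.

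ABCB1 was the member called as changed, and its start regions are shown because the gene-level counts pool transcripts from both. The windows come from RefSeq (GRCh38.p14) and are the 250 bases before each of the 2 annotated starts, read 5′ to 3′ on the minus strand. The region of the upstream start is chr7:87713296-87713545 and that of the downstream start chr7:87600885-87601134. Capitals mark CCAAT or its reverse complement ATTGG, the CCAAT box to which the factor NF-Y binds.
ABCB1 upstream start: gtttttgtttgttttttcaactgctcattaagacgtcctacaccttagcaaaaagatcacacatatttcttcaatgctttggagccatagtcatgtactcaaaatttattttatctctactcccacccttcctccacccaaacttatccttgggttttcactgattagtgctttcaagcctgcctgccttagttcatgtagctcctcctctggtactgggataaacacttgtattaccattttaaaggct
ABCB1 downstream start: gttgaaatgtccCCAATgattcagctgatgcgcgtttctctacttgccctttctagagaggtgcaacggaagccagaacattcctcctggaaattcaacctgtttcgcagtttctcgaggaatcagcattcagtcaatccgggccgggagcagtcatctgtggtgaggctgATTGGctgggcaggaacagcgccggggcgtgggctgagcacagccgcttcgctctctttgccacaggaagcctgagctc
The downstream window holds CCAAT 238 bases before the start and ATTGG 79 bases before it, and the upstream window holds neither. Within the full windows of 300 bases, which run 50 bases past the start, CTTTGA or TCAAAG, a core of TCF sites, occurred once, as TCAAAG at base 25 after the downstream start. The GC box GGGCGG, searched on both strands, occurred in neither window. Over 35116 promoter windows of 300 bases, 34.6% held CCAAT or ATTGG, 45.0% held the GC box and 12.9% held the TCF core. Of 53 windows for 35 of the 45 members, 12 held CCAAT or ATTGG, 25 the GC box and 6 the TCF core. These matches describe letters and not binding, and other spellings of the cores and bases outside the windows were not searched.

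Libraries held 35643585 to 42812951 counts. SPOCK1 had 6719, 7828, 9712 and 8964 counts in SPOCK1 libraries 1 to 4, against 6, 0, 3 and 6 counts in vector libraries 1 to 4, in accord with the labels. Of 12 markers of colorectal epithelium 8 were tested, among them EPCAM, KRT8, KRT18, KRT19 and CDX2, while KRT20, CDX1, CDH17 and CEACAM5 had at most 19 counts in all libraries together. CDH1 was the 1 marker called, and was lower with SPOCK1. Summed levels of 6 endothelial markers were 0.855 to 1.28 CPM (counts divided by the scaled library total, in units of 1e6) in SPOCK1 libraries and 0.485 to 1.29 CPM in vector libraries. The 6 fibroblast markers summed to 1.05 to 1.78 CPM with SPOCK1 and 1.05 to 2.29 CPM with vector, and the 8 leukocyte markers to 0.878 to 1.37 CPM and 1.36 to 1.78 CPM. Of 8 hepatocyte markers 5 had no counts, and SERPINA1 supplied nearly all of the summed level, at 65.5 CPM with SPOCK1 and 70.8 CPM with vector. Counts of ribosomal RNA genes, nuclear and mitochondrial together, took 0.560% to 0.670% of SPOCK1 libraries and 0.696% to 0.738% of vector libraries. Their part in the differences was not tested.

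Of the 45 ABC genes 28 had enough counts to be tested, and 1 of them, ABCB1, was lower with SPOCK1 at an adjusted p under 0.05 in edgeR's quasi-likelihood test. Over all 15790 genes tested 1.04% were called, 0.798% as lower and 0.247% as higher. With offsets for GC content and length in each library 254 genes were called lower and 364 higher over all genes, in place of 126 and 39. No ABC gene was called higher by edgeR, by DESeq2 or by limma-voom, and 1 (ABCC4) was higher at an unadjusted p under 0.05. At that unadjusted threshold 4 of the 28 passed, or 14.3%, beside 13.7% of all genes tested, so this share was near the background. The groups did not overlap in 4 of the 28, ABCB1, ABCB4 and ABCC4 among them, beside 8.24% of all genes tested. Of the 28 log2 fold changes 14 were positive and 14 negative, with a median of 0.00095, against a median of -0.0042 over all genes tested. All 45 members together took 0.0842% to 0.0945% of the counts in SPOCK1 libraries and 0.0904% to 0.0990% in vector libraries.

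**Figure D1:**
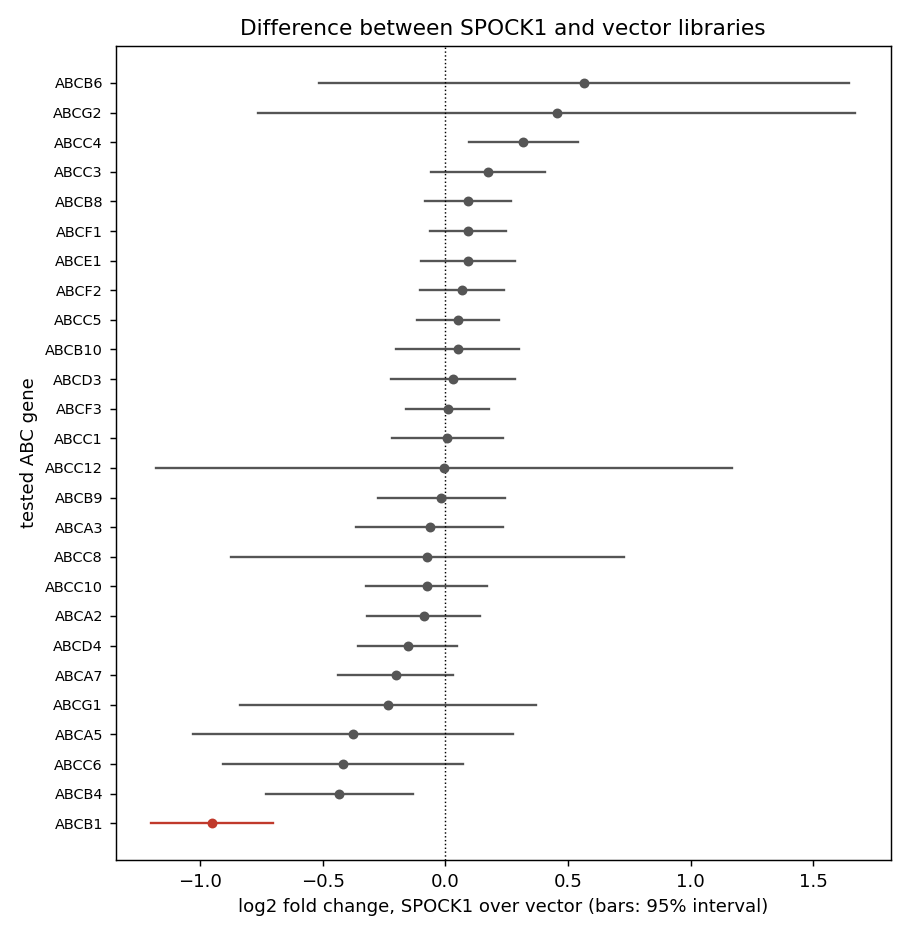
The log2 fold change of SPOCK1 over vector (horizontal axis) is shown for 26 tested ABC genes, with bars for the 95% interval and red for an adjusted p under 0.05. ABCB1 lies at -0.95, and ABCB4 follows at -0.43.

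Levels within the family were compared as CPM per kb of annotated exons. Genes without a membrane domain stood near the top. ABCF1, which acts in translation initiation, was highest, at 27.6 ± 0.777 with SPOCK1 and 25.9 ± 1.49 with vector (CPM per kb, SD, n = 4 each). ABCF3 had 15.8 ± 0.976 CPM per kb with SPOCK1 and 15.7 ± 0.963 with vector. ABCE1, which splits ribosomes after termination, stood at 11.9 ± 1.28 CPM per kb with SPOCK1 and 11.1 ± 0.781 with vector, and ABCF2 at 11.7 ± 0.160 and 11.1 ± 0.675. The highest tested ABCC gene was ABCC1, at 11.2 ± 1.86 CPM per kb with SPOCK1 and 11.1 ± 0.985 with vector. For ABCB it was ABCB8, at 7.78 ± 0.590 and 7.29 ± 0.436, and for ABCA it was ABCA2, at 6.17 ± 1.09 and 6.56 ± 0.435. The highest tested ABCG gene, ABCG1, was low, at 0.162 ± 0.026 CPM per kb with SPOCK1 and 0.190 ± 0.050 with vector. Library values of ABCE1, ABCF2 and ABCC1 overlapped in both groups. ABCB1 ranked at place 17 of 45 with SPOCK1 and 12 of 45 with vector.

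**Figure D2:**
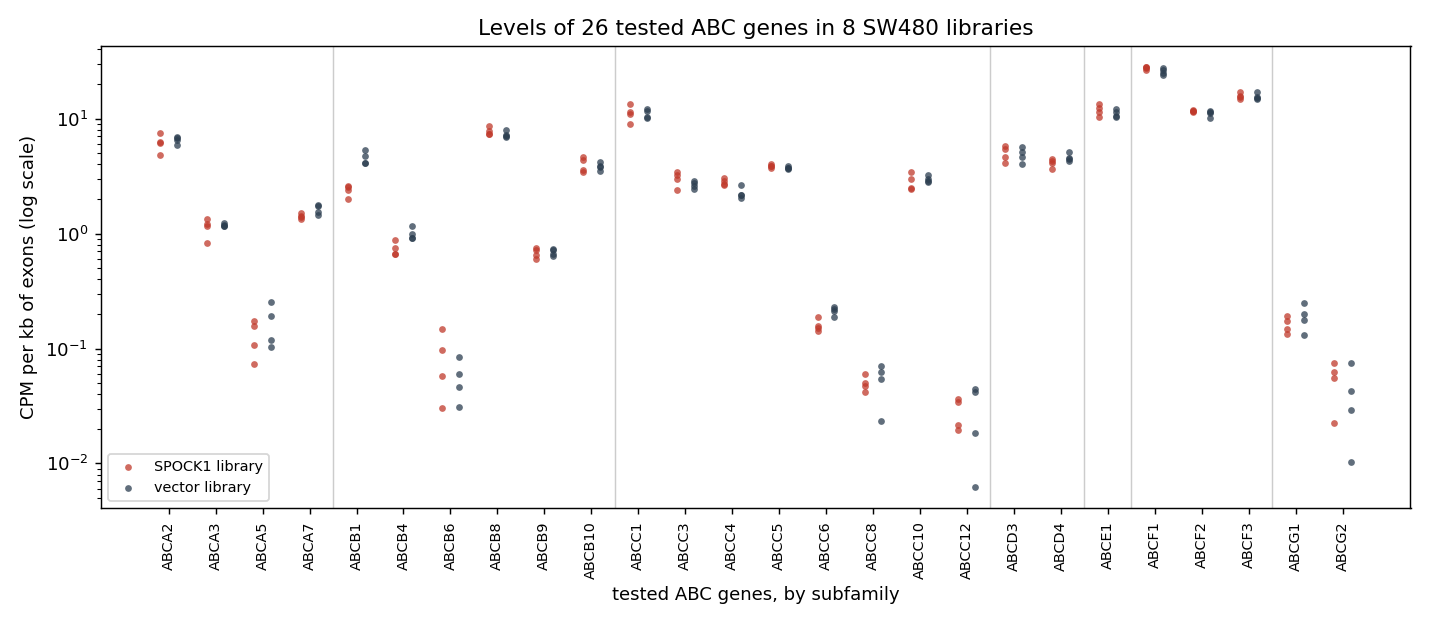
Levels of 26 tested ABC genes in CPM per kb of exons (vertical log axis) are grouped by subfamily, with a point for each SPOCK1 library at the left and each vector library at the right of a gene. ABCF1 is highest at 25.9 to 27.6 on average, and the SPOCK1 points of ABCB1 lie below its vector points.

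ABCB1 (ENSG00000085563, chr7:87503633-87713323, minus strand) was lower in every SPOCK1 library than in any vector library. It had 432, 524, 598 and 516 counts in SPOCK1 libraries 1 to 4, against 1189, 886, 1020 and 983 counts in vector libraries 1 to 4. Scaled to library size these were 11.6 to 14.9 CPM with SPOCK1 and 23.9 to 31.0 CPM with vector. SPOCK1 library 1 was the lowest and vector library 1 the highest. The mean was 13.7 ± 1.54 CPM with SPOCK1 and 26.6 ± 3.40 CPM with vector (SD, n = 4 each). The log2 fold change was -0.95 ± 0.12 (SE, 95% interval -1.20 to -0.70), which is 0.517 of the vector level, with an edgeR adjusted p of 3.13e-04 and place 18 of 15790 by p. ABCB1 was called in all 19 alternative fits, at adjusted p of 5.99e-12 to 0.0326. CDH1, the epithelial cadherin, was lower in the same libraries, at 11.2 ± 1.21 CPM with SPOCK1 and 17.8 ± 1.29 CPM with vector (SD, n = 4 each, edgeR adjusted p = 0.00537), and its part in the difference was not tested. In bulk RNA a lower share of ABCB1-expressing cells and less ABCB1 RNA per cell cannot be told apart.

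**Figure D3:**
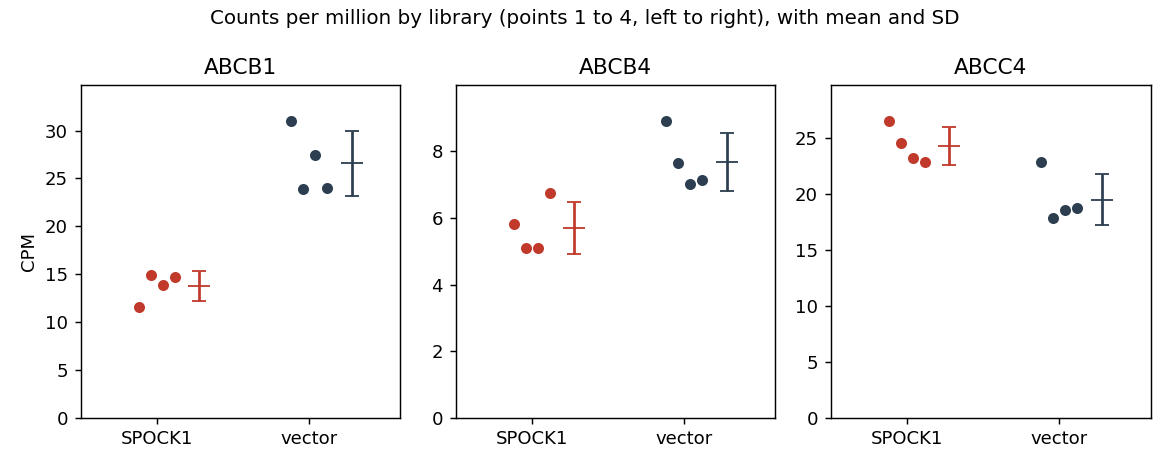
Levels in CPM (vertical axis, from 0) of ABCB1, ABCB4 and ABCC4 are shown for each library, with the mean and SD of 4 libraries beside the points. SPOCK1 points lie below the vector points for ABCB1 and ABCB4, and above them for ABCC4, where the closest libraries of the groups both stand at 22.8 CPM.

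No multidrug efflux gene other than ABCB1 was called by edgeR. Of 9 such genes on the list 7 were tested, 1 was called lower, 0 were called higher and 6 did not pass (edgeR, with the same counts by DESeq2 and limma-voom). ABCC1, the glutathione conjugate exporter MRP1, was the most abundant per length. It had 67.9, 83.0, 85.9 and 102.3 CPM in SPOCK1 libraries, against 92.5, 88.6, 78.9 and 77.2 CPM in vector libraries. The groups overlapped, and the 95% interval of the log2 fold change was -0.22 to 0.24. ABCC4, or MRP4, which exports cyclic nucleotides and nucleotide analogs, had 26.5, 24.6, 23.2 and 22.8 CPM with SPOCK1, against 22.8, 17.8, 18.6 and 18.7 CPM with vector. Every SPOCK1 library was above every vector library, the closest by less than the rounding shown, at a log2 fold change of 0.32 ± 0.11 (SE). Its adjusted p was 0.195, and 0.0315 to 0.530 over the alternatives, the lowest with GC content and length offsets, the 1 alternative that called it. ABCC3, a basolateral exporter of organic anions, had a log2 fold change of 0.17 (95% interval -0.06 to 0.41), ABCC5, another exporter of cyclic nucleotides, one of 0.05 (-0.12 to 0.22), and ABCC10 one of -0.08 (-0.32 to 0.17). ABCG2, the breast cancer resistance protein, was scarce, with 14, 11, 12 and 4 counts with SPOCK1 and 2, 8, 14 and 6 with vector. Its groups overlapped, and its 95% interval of -0.76 to 1.67 on the log2 scale reached a fold of 3.19.

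ABCB1 made up a smaller share of the efflux genes' RNA with SPOCK1. Of the summed CPM per kb of the 9 genes it took 8.77%, 9.88%, 8.97% and 8.59% in SPOCK1 libraries 1 to 4, against 17.9%, 15.0%, 17.9% and 15.9% in vector libraries 1 to 4. The other 8 genes summed to 20.7 to 26.9 CPM per kb with SPOCK1 and 21.7 to 24.5 CPM per kb with vector, so their ranges overlapped. No test was made on these sums.

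**Figure D4:**
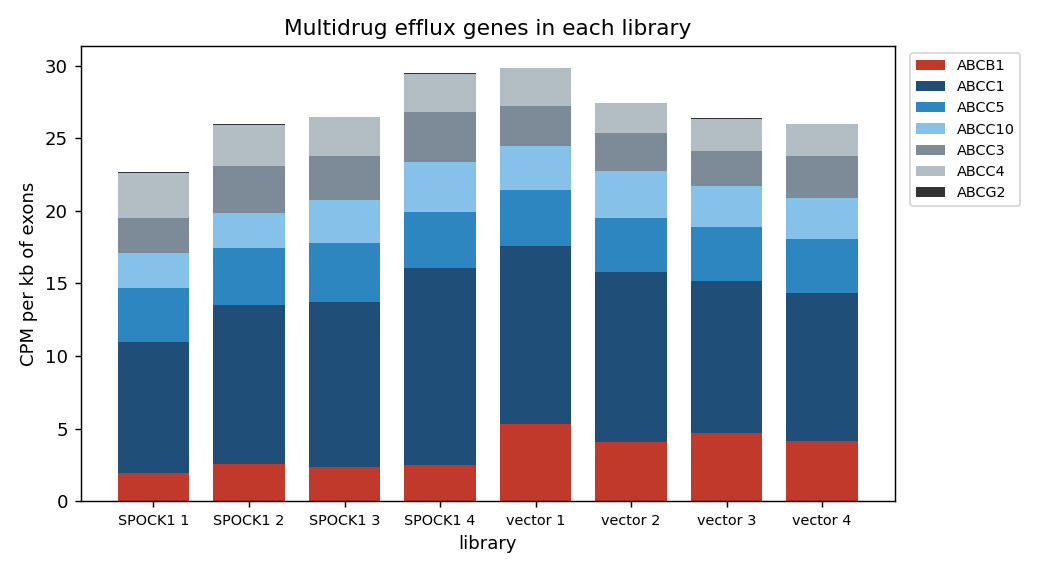
Stacked bars give the CPM per kb of exons (vertical axis) of the 7 tested multidrug efflux genes in each library, with ABCB1 in red at the base. The red part stands between 1.99 and 2.57 in the SPOCK1 libraries and between 4.12 and 5.35 in the vector libraries.

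The closest relative and neighbour of ABCB1 also lay lower, without passing the test. ABCB4, a phosphatidylcholine floppase of liver bile canaliculi (chr7:87401697-87480435, minus strand), had 5.83, 5.10, 5.10 and 6.75 CPM with SPOCK1, against 8.93, 7.64, 7.03 and 7.14 CPM with vector. The groups did not overlap. The log2 fold change was -0.43 ± 0.14 (SE), with an adjusted p of 0.185, and 0.0890 to 0.571 over the alternatives. Per length, ABCB1 was 2.64 to 3.90 times as abundant as ABCB4 in SPOCK1 libraries and 4.17 to 5.20 times in vector libraries. RUNDC3B lies within the span of ABCB1 on the opposite strand, but shares 0 exonic bases with it in GENCODE release 29. It had 4, 12, 24 and 6 counts with SPOCK1, against 34, 14, 11 and 40 with vector, which overlap (log2 fold change -1.09 ± 0.53, SE, adjusted p = 0.375). Of the 7 listed genes at the locus, ABCB4 and RUNDC3B included, 0 were called in either direction by edgeR, DESeq2 or limma-voom. In edgeR 3 had an unadjusted p under 0.05, 2 lower (ABCB4 among them) and 1 higher, beside 13.7% of all genes tested. The log2 fold changes of the other 5 were -0.25 for SLC25A40, 0.13 for DBF4, -0.01 for CROT, -0.25 for ADAM22 and 0.27 for TMEM243.

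No mitochondrial member was called. All 4 were tested, 0 passed by edgeR, DESeq2 or limma-voom, and 0 had an unadjusted p under 0.05. ABCB8, part of a potassium channel complex of the inner membrane, had 72.5, 68.6, 68.9 and 80.4 CPM with SPOCK1, against 64.4, 73.8, 66.3 and 67.7 CPM with vector. The groups overlapped, at a log2 fold change of 0.09 (95% interval -0.08 to 0.27). ABCB10, of the inner membrane and linked to heme synthesis, had one of 0.05 (-0.20 to 0.30). ABCB6, linked to porphyrin transport, had 109 counts in all libraries together and a log2 fold change of 0.57 (-0.51 to 1.64). Of its annotated exon bases, 54.7% also belong to AC068946.2, a gene on the same strand with 0 counts, so reads of the shared exons may be missing from both and its level is uncertain.

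Among peroxisomal and lysosomal members, ABCD3, ABCD4 and ABCB9 were tested and did not pass in edgeR. ABCD3, which imports branched and dicarboxylic acids into peroxisomes, had 43.5, 35.5, 41.6 and 31.3 CPM with SPOCK1, against 39.2, 35.2, 43.4 and 30.9 CPM with vector. The groups overlapped, at a log2 fold change of 0.03 (95% interval -0.22 to 0.29). ABCD4, a lysosomal protein of cobalamin export, had one of -0.15 (-0.36 to 0.05), and ABCB9, a lysosomal peptide transporter, one of -0.02 (-0.27 to 0.24). ABCD2 had no counts.

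The 4 soluble members were abundant, and none was called. ABCF1 had 119.7, 126.9, 127.5 and 125.0 CPM with SPOCK1, against 113.8, 124.3, 120.6 and 109.3 CPM with vector, with a log2 fold change of 0.09 (95% interval -0.06 to 0.25). ABCE1 had 77.2, 71.1, 83.8 and 65.1 CPM with SPOCK1, against 71.7, 65.3, 75.7 and 66.2 CPM with vector, at 0.09 (-0.10 to 0.28) on the log2 scale. The groups overlapped in both genes. ABCF2 stood at 0.07 (-0.10 to 0.24) and ABCF3 at 0.01 (-0.16 to 0.18). None had an unadjusted p under 0.05, and 0 were called by edgeR, DESeq2 or limma-voom. ABCF2 shares 45.8% of its exon bases with AC021097.2, on the same strand and with 0 counts, so its level is uncertain too.

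Lipid and sterol transporters were mostly scarce in these cells. Of 12 listed genes 5 were tested, ABCA2, ABCA3, ABCA7, ABCB4 and ABCG1. By edgeR, DESeq2 or limma-voom 0 were called, and 1 (ABCB4) had an unadjusted p under 0.05. The 5 log2 fold changes were negative, with a median of -0.20, but the sign did not hold for ABCA2 and ABCA3, which stood at 0.09 and 0.05 with GC content and length offsets and at 0.01 and 0.06 without SPOCK1 library 1. Both were also positive in libraries 2 and 4 of each group alone, and ABCG1 was positive (0.03) in libraries 1 and 3 alone. ABCA2, an endolysosomal lipid transporter, had 55.4, 71.8, 70.7 and 86.1 CPM with SPOCK1, against 78.8, 75.8, 68.4 and 79.2 CPM with vector, and the groups overlapped. ABCA3, known for surfactant lipids in lung, had a log2 fold change of -0.07 (95% interval -0.36 to 0.23). ABCA7, a phospholipid transporter, had a log2 fold change of -0.20 (95% interval -0.44 to 0.03), and ABCG1, which exports sterols to lipoproteins, one of -0.24 (-0.84 to 0.37). ABCA5, an endolysosomal member outside this list, had one of -0.38 (-1.03 to 0.27). ABCA1, the main exporter of cholesterol to apolipoprotein A-I, was nearly absent, with 7 counts in all SPOCK1 libraries together and 8 in all vector libraries.

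The 17 members not tested were 8 ABCA, 2 ABCB, 3 ABCC, 1 ABCD and 3 ABCG genes. ABCA6, ABCA8, ABCA9, ABCA10, ABCB11, ABCD2 and ABCG8 had 0 counts in all 8 libraries, which allows up to 0.0693 to 0.0855 CPM in each SPOCK1 library and 0.0731 to 0.0810 CPM in each vector library. Over all libraries ABCA1 had 15 counts, ABCA4 63, ABCA12 24, ABCA13 7, ABCB5 6, ABCC2 4, ABCC9 40, ABCC11 29, ABCG4 33 and ABCG5 4. ABCC2, or MRP2, the apical exporter of conjugates in liver and gut, was therefore close to absent. ABCG4 had 4, 0, 0 and 0 counts with SPOCK1, against 14, 2, 6 and 7 with vector, too few to pass the filter. Tested members of low count were ABCC6, ABCC8 and ABCC12, with log2 intervals of -0.91 to 0.07, -0.87 to 0.73 and -1.18 to 1.17. ABCC6, with 429 counts, has the partial copies ABCC6P1 and ABCC6P2 with 253 and 148 counts, so its level is uncertain.

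Of the family genes under other names, CFTR, the epithelial chloride channel, had 0 counts. TAP1 and TAP2, which carry peptides into the endoplasmic reticulum for antigen presentation, had log2 fold changes of -0.14 (95% interval -0.35 to 0.07) and 0.10 (-0.12 to 0.32). TAP2 shares 32.3% of its exon bases with AL669918.1. By edgeR, DESeq2 and limma-voom 0 of both were called, and 0 had an unadjusted p under 0.05.

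Genes that act beside the family were taken from 4 lists. Of 20 tested genes of LXR (liver X receptor) targets and cholesterol handling, 2 were lower, 0 were higher and 18 did not pass, with a median log2 fold change of -0.08. At an unadjusted p under 0.05, 6 of the 20 were lower and 0 higher, beside 13.7% of all genes tested in either direction, and at an adjusted p under 0.05, 0.798% of all genes tested were lower. DESeq2 and limma-voom each called 2 lower and 0 higher. APOE, the apolipoprotein that accepts effluxed cholesterol, had 895, 983, 1136 and 1023 counts in SPOCK1 libraries 1 to 4, against 1456, 1525, 1586 and 1723 counts in vector libraries 1 to 4, or 23.9 to 29.1 CPM and 38.0 to 42.7 CPM. The groups did not overlap, and the log2 difference was -0.61 ± 0.09 (SE), at an edgeR adjusted p of 0.00220. INSIG1, a sterol sensor, averaged 67.6 ± 5.72 CPM with SPOCK1 and 98.7 ± 4.28 CPM with vector (SD, n = 4 each), which is -0.55 ± 0.08 (SE) on the log2 scale, at an edgeR adjusted p of 0.00204. With libraries 1 and 3 of each group alone neither passed, at adjusted p of 0.164 for APOE and 0.284 for INSIG1, while the log2 differences were -0.68 and -0.51. That fit called 1 gene higher and 7 lower over all genes.

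Of 27 tested regulators of ABC genes, among them nuclear receptors, TCF7L2, CTNNB1 and MYC, 0 were called by edgeR or limma-voom. In edgeR 7 had an unadjusted p under 0.05, 6 lower and 1 higher, beside 13.7% of all genes tested in either direction. Over the 27 the median log2 fold change was -0.17, with 20 negative and 7 positive, beside 8029 negative and 7761 positive over all genes tested. Neither this median nor that of the LXR list was taken with the GC content and length offsets, so the lean may depend on the processing. DESeq2 called 1, SREBF2, as lower, at a log2 fold change of -0.34, which was -0.26 with the offsets. SREBF2, which drives sterol synthesis genes, had 204.7 ± 24.3 CPM with SPOCK1 and 260.7 ± 7.06 CPM with vector (SD, n = 4 each, edgeR adjusted p = 0.0625). Of 35 tested genes of xenobiotic handling outside the family, such as GSTP1, NQO1 and MVP, 0 were called by any of the 3 tools. By edgeR 3 had an unadjusted p under 0.05, 2 lower and 1 higher, beside the same 13.7%. Of 29 tested partners of ABC proteins 0 were called by edgeR or limma-voom. By edgeR 5 had an unadjusted p under 0.05, 1 lower and 4 higher, again beside 13.7%. DESeq2 called EZR and CAV1 as higher and KCNJ11 as lower. EZR, which encodes ezrin, a linker of membrane proteins to actin, had 449.7 ± 13.5 CPM with SPOCK1 and 369.3 ± 29.4 CPM with vector (SD, n = 4 each, edgeR adjusted p = 0.0875). CAV1, which encodes caveolin, had 15.7 ± 2.03 and 11.2 ± 0.624 CPM (edgeR adjusted p = 0.0629), and KCNJ11, the channel partner of ABCC8, 4.49 ± 0.543 and 6.42 ± 0.656 CPM (edgeR adjusted p = 0.115), in SPOCK1 and in vector libraries. These 4 genes, SERPINA1 and CDH1 were named after their values were seen.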

How the data were processed

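RNA was sequenced from 4 SPOCK1 and 4 vector libraries of SW480. The authors deposited whole-number, unnormalized counts for each gene. The submitters' processing notes name featureCounts 1.5.0-p3, HISAT2 2.0.5 and CASAVA. How strand and multi-mapping reads were handled is not given in the sources used here, so reads of overlapping genes or near-identical copies cannot be separated. Start, end, strand and exon length of all 58735 genes equal those of GENCODE release 29 (GRCh38). Among low counts even values were more frequent than odd ones (13063 values of 2 and 8165 of 1), so counts may not be independent fragments, and limits from a count of 0 (up to 3 counts) cover counting error only.

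Genes passed filterByExpr (minimum count 10, minimum total 15). Counts were fitted with edgeR 4.0.16 in R 4.3.3 (TMM, glmQLFit, glmQLFTest, no covariates), with Benjamini-Hochberg adjustment over all 15790 genes and a call at 0.05. CPM used TMM-scaled totals. The SE came from the F statistic and the 95% interval from its moderated degrees of freedom. The 19 alternatives included DESeq2 1.42.0, limma-voom (limma 3.58.1) and offsets on GC content of the longest transcript and exonic length (splines of 5 degrees of freedom). On simulated data, with the seed used, false calls took 9.14% of calls, a larger share than the nominal 0.05. Of 67 changes of 1.5-fold, the smallest simulated, 49 were recovered. Smaller changes were not simulated, so a gene not called may still differ by less. Simulated counts were drawn independently, without structure shared between libraries.

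Members, lists and tests were chosen with earlier results of these data known. Named were ABCB1, members with an unadjusted p under 0.05, the 5 highest per length, the highest per subfamily, untested members, and listed genes called. No per-sample columns were left out. Values of some members are not reported here.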

Additional observations from a re-analysis of the deposited data

How the results depend on the processing

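The fall of ABCB1 was called in all 19 alternatives, at log2 fold changes of -1.20 (libraries 1 and 3 of each group alone) to -0.69 (libraries 2 and 4 alone). The count of ABC genes called lower was 2 in place of 1 by DESeq2 and with no filter beyond 1 count, and 1 to 2 leaving out 1 library (2 without SPOCK1 library 4). The count called higher was 1 in place of 0 with GC content and length offsets (ABCC4), and 0 in every fit that left out 1 library. In the 4 lists beside the family, calls higher were 2 by DESeq2, 1 with no filter, 3 with the offsets and 0 to 2 leaving out 1 library, in place of 0. Calls lower were 4 by DESeq2, 0 in libraries 1 and 3 alone and 2 to 4 leaving out 1 library, in place of 2. Over all genes, in place of 39 higher and 126 lower, DESeq2 called 105 and 273, no filter 120 and 279, the offsets 364 and 254, libraries 1 and 3 alone 1 and 7, and fits without 1 library 24 to 66 and 63 to 171. The median log2 fold change of the 28 tested members was 0.06 with the offsets and -0.05 without SPOCK1 library 4. Over all genes tested the median was 0.03 and -0.0031 in these 2 fits, in place of -0.0042. The cause of these shifts was not tested. Same-numbered libraries correlated at -0.0739 to 0.0817 in their deviations from group means, so the numbers were not taken as pairs. Some differently numbered libraries correlated more strongly across the groups. SPOCK1 library 1 with vector library 3 gave 0.159, SPOCK1 3 with vector 1 0.116 and SPOCK1 4 with vector 2 0.105. SPOCK1 4 with vector 3 gave -0.153. In ABCA5, ABCD3 and ABCE1, libraries 1 and 3 stood above libraries 2 and 4 in both groups. In ABCB1 and ABCF1 they did not. The main fit had no term for such a structure, so its SE and intervals include that spread. Its part in the range of ABCB1 over the alternatives was not tested. With the replicate number as a block 31 genes were called higher and 84 lower, ABCB1 stood at -0.95 (log2, adjusted p = 0.00538), and no other ABC gene was called. At 71 to 109 counts in all libraries, ABCG2, ABCC12 and ABCB6 had 95% intervals that reached 2.25-fold to 3.19-fold, so depth limits what can be said of them.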
